A study of Homo sapiens with 12 samples.

Results

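The 10 genes described here are the usual markers and drivers of epithelial-mesenchymal transition (EMT), and they were taken by name from 34227 genes listed in either of the deposited tables. They are the epithelial adhesion genes CDH1 and EPCAM, the mesenchymal genes CDH2, VIM and FN1, and the transcription factor genes SNAI1, SNAI2, ZEB1, ZEB2 and TWIST1, and all 10 were matched to a single row of each table. The cells were SCC15 and SCC25, established lines of head and neck squamous cell carcinoma (HNSCC) with a wild-type genotype by the labels. RNA was sequenced from 3 libraries of each line exposed for 24 h to squamocin at 10 µg/mL and from 3 libraries of each line given DMSO, the solvent (12 libraries in all). The labels call the treatment ACGs, for annonaceous acetogenins, the plant compounds to which squamocin belongs, and the groups are called ACGs and DMSO below. Nothing in the labels says that the 3 libraries of a group came from separate cultures, so the p-values measure the spread between these libraries, which may be technical.

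In EMT, an epithelial cell gives up the junctions that hold it to its neighbours and takes on the matrix, cytoskeleton and motility of a mesenchymal cell. E-cadherin, the product of CDH1, is lost in the classical form of the process, and N-cadherin (CDH2) and vimentin (VIM) are gained. The SNAI, ZEB and TWIST proteins bind E-box motifs in DNA and repress CDH1 and other epithelial genes, and the miR-200 family and miR-205 in turn repress ZEB1 and ZEB2. In HNSCC the programme is often partial, with mesenchymal genes expressed beside keratins and other epithelial genes.

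The mature miRNAs that act on ZEB mRNAs are shown first, since ZEB1 is the member that moved in opposite directions in the 2 lines. The sequences are from RefSeq (GRCh38.p14), 5′ to 3′, and the capitals mark the seed, bases 2 to 8. hsa-miR-200c-3p lies at chr12:6963742-6963764 and hsa-miR-141-3p at chr12:6964155-6964176, both on the plus strand and inside the span of the host gene MIR200CHG, and hsa-miR-205-5p lies at chr1:209432166-209432187 on the plus strand inside MIR205HG.
hsa-miR-200c-3p: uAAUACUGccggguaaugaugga
hsa-miR-141-3p: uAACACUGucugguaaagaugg
hsa-miR-205-5p: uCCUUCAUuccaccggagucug
The seeds of hsa-miR-200c-3p and hsa-miR-141-3p differ at 1 base, and that of hsa-miR-205-5p differs from them at 5 and 6 bases.

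In the 3′ UTR of the canonical ZEB1 transcript (2540 bases, GENCODE release 44), the complement of the hsa-miR-200c-3p seed, CAGTATT, occurred 6 times, that of hsa-miR-141-3p, CAGTGTT, 3 times and that of hsa-miR-205-5p, ATGAAGG, 1 time. In the ZEB2 3′ UTR (5370 bases) the counts were 5, 4 and 0. Of the other members, the FN1 3′ UTR held CAGTATT 2 times and the SNAI2 3′ UTR 1 time, and CDH1, EPCAM, CDH2, VIM, SNAI1 and TWIST1 held none of the 3 motifs. Over 19559 canonical 3′ UTRs of all lengths, 16.0% held CAGTATT, 18.2% CAGTGTT and 11.6% ATGAAGG. The motifs were read on the transcript strand, and a match is a description of the sequence.

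Promoter windows from RefSeq (250 bases before to 50 after each start site) were at hand for 5 of the 10 members, CDH2, VIM, FN1, ZEB1 and ZEB2, 12 windows in all. The E-box was searched in a single form, CAGGTG or CACCTG, which are one motif on the opposite strands. Other E-box forms, which TWIST proteins may also bind, were not searched. It occurred in 20.6% of 35116 windows of the same length, and among the members in 2 of the 7 windows of ZEB1 and in no window of CDH2, VIM, FN1 or ZEB2. The FN1 window held the full cAMP response element, TGACGTCA, which is its own complement and which 1.85% of all windows held; this motif was chosen after the data had been seen. The 250 bases before the start are printed for these 3 windows (GRCh38.p14), with the motifs in capitals, for ZEB1 because it moved oppositely in the 2 lines and for FN1 because it was the most abundant member in SCC15 cells. The first is chr10:31318167-31318416 on the plus strand, the second chr10:31318966-31319215 on the plus strand, whose window held 3 E-boxes with the last one past the start, and the third chr2:215436069-215436318 on the minus strand.
ZEB1, first window: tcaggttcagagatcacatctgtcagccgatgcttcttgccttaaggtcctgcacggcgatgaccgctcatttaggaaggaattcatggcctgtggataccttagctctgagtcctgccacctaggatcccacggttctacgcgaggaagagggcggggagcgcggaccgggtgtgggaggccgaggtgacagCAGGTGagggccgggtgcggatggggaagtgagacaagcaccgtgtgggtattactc
ZEB1, second window: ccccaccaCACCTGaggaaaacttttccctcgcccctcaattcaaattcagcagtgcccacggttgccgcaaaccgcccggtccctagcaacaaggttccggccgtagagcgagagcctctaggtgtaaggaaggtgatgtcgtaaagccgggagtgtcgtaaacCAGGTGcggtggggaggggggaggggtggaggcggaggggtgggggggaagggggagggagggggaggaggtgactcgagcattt
FN1: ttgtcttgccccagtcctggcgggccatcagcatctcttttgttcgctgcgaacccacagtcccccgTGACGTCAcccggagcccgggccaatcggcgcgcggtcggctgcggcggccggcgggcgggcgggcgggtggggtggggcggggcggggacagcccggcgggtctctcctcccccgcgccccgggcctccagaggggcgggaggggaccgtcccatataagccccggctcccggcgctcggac

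The libraries held 16665563 to 22748845 reads on genes. The values below are normalized counts, the reads of a gene divided by the authors' size factor of the library, and levels of different genes are compared only as TPM, a unit that corrects the reads of a gene for its exonic length and the depth of the library. After this scaling the libraries did not have equal totals: the median total was 20826159 with ACGs and 15511759 with DMSO in SCC15, and 21182014 and 18272805 in SCC25. Setting the totals equal instead moved the median log2 fold change of all genes from 0.01 to -0.48 in SCC15 and from -0.01 to -0.22 in SCC25, and calls of named genes that were lost with equal totals are given with the gene or its list. In SCC15, ACGs replicate 3 stood apart from the other ACGs libraries (chi-square per degree of freedom of 61.3 and 69.4 against them, and 1.74 to 10.9 for the other 10 pairs of replicates), and results that rest on it are given without it. Of the squamous markers, KRT17 and KRT14 were expressed in both lines, with 18369 and 779 normalized counts in SCC25 with ACGs and 260258 and 1440 in SCC15 with ACGs, but KRT5 (5.41 with ACGs, 7.46 over all 6 libraries) and TP63 (10.5 with ACGs) were close to 0 in SCC15, where the SCC25 means with ACGs were 4748 and 6780. The label of a squamous carcinoma line therefore rests on fewer markers in SCC15. KRT17 and KRT14 were higher with ACGs than with DMSO (log2 fold changes of 1.17 and 0.89 in SCC15, 1.60 and 1.06 in SCC25). With DMSO the 6 squamous markers summed to 112493 to 118783 normalized counts in SCC15 and 21540 to 21988 in SCC25.

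The order of the levels was not the same in the 2 lines. In SCC15 cells with DMSO, FN1 stood highest at 859 TPM ± 33.6 (SD, n = 3), followed by SNAI1 at 96.5 ± 5.42, TWIST1 at 41.1 ± 6.05, CDH1 at 21.8 ± 1.13, ZEB1 at 15.6 ± 0.152 and SNAI2 at 7.36 ± 0.810. EPCAM lay at 1.19 TPM ± 0.0811, ZEB2 at 0.239 ± 0.0590, VIM at 0.108 ± 0.0590 and CDH2 at 0.0319 ± 0.0352, and only the last pair of neighbours, VIM and CDH2, overlapped between libraries. In SCC25 cells with DMSO, the epithelial pair stood on top, with EPCAM at 227 TPM ± 2.01 and CDH1 at 161 ± 3.31. TWIST1 (18.0 ± 0.908), SNAI1 (14.5 ± 0.699), FN1 (14.2 ± 0.190) and SNAI2 (12.4 ± 0.570) followed, where SNAI1 and FN1 overlapped, and CDH2 lay at 4.03 ± 0.354. ZEB2 (0.301 ± 0.0554), VIM (0.172 ± 0.191) and ZEB1 (0.0856 ± 0.0612) were lowest, and each overlapped the next. The tables were normalized separately, so the levels of the 2 lines stand side by side with no test between them. Vimentin mRNA was close to 0 in both lines, with at most 4 reads per library in SCC15 and at most 21 in SCC25.

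With ACGs, the order in SCC25 changed in the middle and at the lower end. EPCAM (388 TPM ± 11.1) and CDH1 (99.5 ± 5.05) stayed first and second, and TWIST1 reached 46.2 ± 1.304. SNAI2, at 25.04 ± 0.716, now stood above SNAI1 at 18.5 ± 0.600, and FN1 fell behind both at 7.94 ± 0.246. The lowest 3 genes stood in the reverse order, ZEB1 (0.572 ± 0.0511), VIM (0.539 ± 0.116) and ZEB2 (0.330 ± 0.0622), where ZEB1 and VIM overlapped and VIM lay above ZEB2 in every library. In SCC15, the 3 highest places remained FN1 (431 ± 176), SNAI1 (131 ± 12.2) and TWIST1 (73.9 ± 8.85), SNAI2 (9.79 ± 1.44) stood above ZEB1 (7.01 ± 2.22), and CDH1 at 12.99 ± 3.84 overlapped SNAI2.

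**Figure D1:**
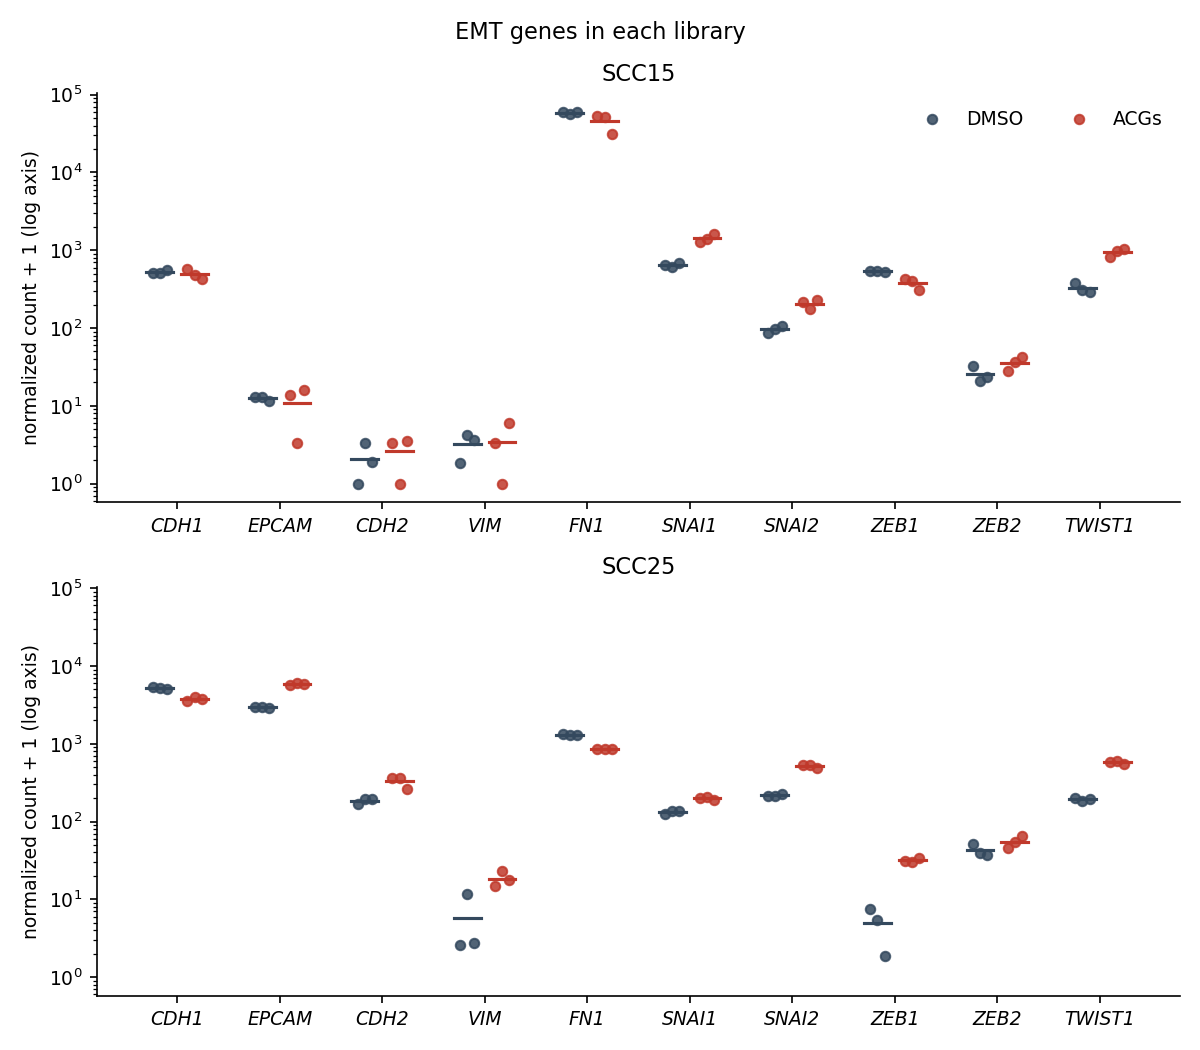
Normalized count plus 1 (log axis) of the 10 EMT genes in each library of SCC15 (top) and SCC25 (bottom), where each point is a library and each line the mean of 3 libraries with DMSO (dark) or ACGs (red). SNAI1, SNAI2 and TWIST1 lie higher in all ACGs libraries of both lines, ZEB1 lies lower in SCC15 and higher in SCC25, and CDH2 and VIM lie close to 0 in SCC15.

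The comparison of ACGs with DMSO in each line asks which genes changed with the compound. Of the 8 members tested in SCC15, 3 rose (SNAI1, SNAI2 and TWIST1), 1 fell (ZEB1) and 4 did not pass the threshold (limma on log2-transformed normalized counts with 1 added, adjusted p below 0.05 over all genes tested). Over all 15902 genes tested in SCC15, 30.9% rose and 30.0% fell (61.0% in either direction), and 3 rises among 8 members are near the share of all genes that rose. Of the 10 members tested in SCC25, 7 rose, 2 fell (CDH1 and FN1) and 1 (ZEB2) did not pass, where 38.3% of 16539 genes rose and 38.5% fell (76.8% in either direction). VIM and ZEB1 reached the minimum mean of 10 in SCC25 only through their ACGs libraries, and a rise of such genes is part of how they came to be tested. With at least 10 in every library, VIM and ZEB1 were not tested in SCC25 and 5 members rose. CDH2 and VIM were not tested in SCC15, with 0 to 3 and 0 to 4 reads per library. As these are bulk samples, fewer cells with a transcript and less of it per cell cannot be told apart.

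CDH1 (ENSG00000039068, chr16:68737225-68835548, plus strand), which encodes E-cadherin of the adherens junction, fell in SCC25 cells. Its normalized counts there were 5333, 5159 and 5121 with DMSO and 3587, 4023 and 3757 with ACGs. All ACGs libraries lay below all DMSO libraries, as for 39.6% of all genes in SCC25. The log2 fold change was -0.46 ± 0.05 (SE), 27.3% lower, with adjusted p = 1.52e-06 (limma), and with equal library totals it was -0.67 (adjusted p = 4.10e-08 by limma). In SCC15 the CDH1 counts were 514, 507 and 553 with DMSO and 568, 478 and 428 with ACGs. These overlapped, with a log2 fold change of -0.10 ± 0.12 (limma, adjusted p = 0.480). With equal library totals, CDH1 was lower in SCC15 as well (-0.60, limma adjusted p = 0.0161), so its call there depends on the scaling. In TPM, CDH1 in SCC15 was 21.0 to 23.1 with DMSO and 8.90 to 16.5 with ACGs, without overlap.

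EPCAM (ENSG00000119888, chr2:47345158-47387601, plus strand), an adhesion protein of simple and malignant epithelia, moved the other way from CDH1 in SCC25. The counts were 2975, 2934 and 2918 with DMSO and 5730, 6067 and 5907 with ACGs. No library of one treatment came near those of the other, and the log2 fold change was 1.00 ± 0.04 (limma, adjusted p = 2.09e-10). SCC15 cells held hardly any EPCAM transcript, with 14, 15 and 12 reads in the DMSO libraries and 11, 2 and 12 in the ACGs libraries. The fold change there, -0.47 ± 0.62 on the log2 scale (limma, adjusted p = 0.533), turned to 0.25 without ACGs replicate 2, and no difference was detectable at this depth. The ratio of EPCAM to CDH1 reads within a library, which no scaling can alter, was 0.558, 0.569 and 0.570 in the SCC25 DMSO libraries and 1.597, 1.51 and 1.57 in the ACGs libraries, a log2 difference of 1.46 (exact permutation test, two-sided, p = 0.1, the smallest that 3 against 3 libraries can give).

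CDH2 (ENSG00000170558, chr18:27950966-28177446, minus strand) encodes N-cadherin, whose gain at the expense of E-cadherin is called the cadherin switch. In SCC25 its counts were 166, 194 and 193 with DMSO and 361, 365 and 264 with ACGs. Every ACGs library was above every DMSO library, as for 39.4% of all genes, and the log2 fold change was 0.82 ± 0.13 (limma, adjusted p = 7.13e-05). CDH1 still gave many more reads than CDH2 in every SCC25 library. The number of CDH1 reads per CDH2 read was 32.1, 26.6 and 26.5 with DMSO and 9.94, 11.02 and 14.2 with ACGs, lower in all 3 ACGs libraries by 1.29 on the log2 scale (exact permutation test, two-sided, p = 0.1, again the smallest possible).

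VIM (ENSG00000026025, chr10:17228259-17237593, plus strand), the intermediate filament of mesenchymal cells, was sparse. The SCC25 DMSO libraries held 2, 12 and 2 VIM reads and the ACGs libraries 11, 21 and 15. VIM reached the minimum mean for testing there only through the ACGs libraries. With at least 10 in every library it was not tested. After scaling, the lowest ACGs value (14.0) was above the highest DMSO value (10.8), and the log2 fold change was 2.05 ± 0.58 (limma, adjusted p = 0.00606). Its size depended on the pseudocount, from 0.95 with 10 to 2.40 with 0.1, and it was 2.76 without DMSO replicate 2. The level with ACGs, 0.539 TPM ± 0.116, remained far below that of the epithelial genes. The antisense gene VIM-AS1 overlaps VIM and was listed at 0 in the 3 DMSO libraries of SCC25 and between 5.08 and 8.88 normalized counts with ACGs. Whether the authors counted reads by strand is not stated, so VIM and VIM-AS1 reads cannot be told apart with certainty.

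FN1 (ENSG00000115414, chr2:215360440-215436172, minus strand), which encodes the matrix glycoprotein fibronectin, did not rise in either line. In SCC25 its counts were 1319, 1294 and 1282 with DMSO and 853, 850 and 867 with ACGs. The groups were far apart relative to their spread, and FN1 fell by 0.60 ± 0.05 on the log2 scale (limma, adjusted p = 1.91e-07). In SCC15, where FN1 was abundant, the counts were 59830, 55954 and 59597 with DMSO and 53266, 51679 and 31053 with ACGs. All ACGs values lay below the DMSO values, as for 34.9% of genes in SCC15, and replicate 3 was by far the lowest. The log2 fold change of -0.41 ± 0.22 did not pass the threshold (limma, adjusted p = 0.144). Without replicate 3 it was -0.16, with adjusted p = 0.00206 by limma, and with equal library totals -0.91, with adjusted p = 0.0190. FN1 and CDH1 thus fell together in SCC25, and their ratio within a library (0.247, 0.251 and 0.250 FN1 reads per CDH1 read with DMSO, 0.238, 0.211 and 0.231 with ACGs) changed by only -0.14 on the log2 scale (exact permutation p = 0.1, the smallest possible).

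SNAI1 (ENSG00000124216, chr20:49982999-49988886, plus strand) encodes Snail, a short-lived zinc finger repressor of CDH1. In SCC15 its counts were 655, 614 and 683 with DMSO and 1289, 1408 and 1598 with ACGs. All ACGs libraries lay above all DMSO libraries, as for 35.7% of genes, with a log2 fold change of 1.13 ± 0.10 (limma, adjusted p = 1.28e-04), which was 0.63 with equal library totals. In SCC25 the counts were 125, 136 and 135 with DMSO and 200, 207 and 187 with ACGs. The groups did not overlap, and the log2 fold change was 0.58 ± 0.11 (limma, adjusted p = 2.94e-04) and 0.37 with equal totals.

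SNAI2 (ENSG00000019549, chr8:48917604-48921740, minus strand), which encodes Slug and is also a gene of basal keratinocytes, rose in both lines. Its SCC15 counts were 85.3, 95.7 and 106 with DMSO and 212, 177 and 225 with ACGs. The SCC25 counts were 210, 211 and 227 with DMSO and 530, 526 and 488 with ACGs. The treatments were separate in both lines, with log2 fold changes of 1.09 ± 0.15 in SCC15 (limma, adjusted p = 6.96e-04) and 1.25 ± 0.08 in SCC25 (adjusted p = 1.60e-08). The number of SNAI1 reads per SNAI2 read did not differ in SCC15 beyond the spread between libraries (mean 6.85 with DMSO and 7.05 with ACGs, exact permutation p = 0.9). In SCC25 it was 0.596, 0.643 and 0.595 with DMSO and 0.376, 0.393 and 0.382 with ACGs (exact permutation p = 0.1, the smallest possible).

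TWIST1 (ENSG00000122691, chr7:19020991-19117672, minus strand), a basic helix-loop-helix factor of mesoderm and neural crest, rose in both lines. In SCC15 the counts were 380, 307 and 287 with DMSO and 822, 964 and 1040 with ACGs. In SCC25 they were 201, 182 and 192 with DMSO and 580, 606 and 551 with ACGs. In each line the lowest ACGs library was far above the highest DMSO library, with log2 fold changes of 1.54 ± 0.14 in SCC15 (limma, adjusted p = 1.21e-04) and 1.59 ± 0.08 in SCC25 (adjusted p = 1.96e-09). With equal library totals they were 1.04 and 1.38, and without ACGs replicate 3 the SCC15 value was 1.46.

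ZEB1 (ENSG00000148516, chr10:31318495-31529814, plus strand), a zinc finger and homeodomain repressor of epithelial genes, moved in opposite directions in the 2 lines. In SCC15 its counts were 536, 538 and 525 with DMSO and 423, 397 and 307 with ACGs. The groups did not overlap, and ZEB1 fell by 0.52 ± 0.13 on the log2 scale (limma, adjusted p = 0.0113), by 0.38 without ACGs replicate 3 and by 1.01 with equal library totals. In SCC25 the DMSO libraries held only 8, 5 and 1 ZEB1 reads and the ACGs libraries 24, 28 and 30. ZEB1 reached the minimum mean for testing there only through the ACGs libraries. With at least 10 in every library it was not tested. The 3 ACGs libraries were all higher, with a log2 fold change of 2.91 ± 0.49 (limma, adjusted p = 1.47e-04), which was 1.57 with a pseudocount of 10 and 3.33 with 0.1. Even so, ZEB1 in SCC25 with ACGs lay at 0.572 TPM ± 0.0511, beside 7.01 ± 2.22 in SCC15 with ACGs. ZEB1-AS1, which overlaps ZEB1 on the opposite strand, changed by 0.11 ± 0.17 in SCC25 (limma, adjusted p = 0.563) and by -0.44 ± 0.22 in SCC15 (adjusted p = 0.114), both on the log2 scale. As the strand setting is not stated, ZEB1 and ZEB1-AS1 reads cannot be told apart with certainty where they overlap, which matters most for the few ZEB1 reads of SCC25.

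ZEB2 (ENSG00000169554, chr2:144364364-144524583, minus strand), the second ZEB repressor, did not pass the threshold in either line. Its counts were 31.6, 19.8 and 22.7 with DMSO and 26.7, 35.3 and 41.1 with ACGs in SCC15, and 50.8, 38.7 and 36.3 with DMSO and 44.5, 54.1 and 63.3 with ACGs in SCC25. The treatments overlapped in both lines, with log2 fold changes of 0.47 ± 0.27 (limma, adjusted p = 0.175) and 0.36 ± 0.21 (adjusted p = 0.146). The SCC15 value was -0.01 with equal library totals, so no direction can be given for ZEB2 there. Other genes overlap the ZEB2 span, 6 of 8 on the opposite strand, and with 23 to 63 reads per library small changes were not detectable.

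**Figure D2:**
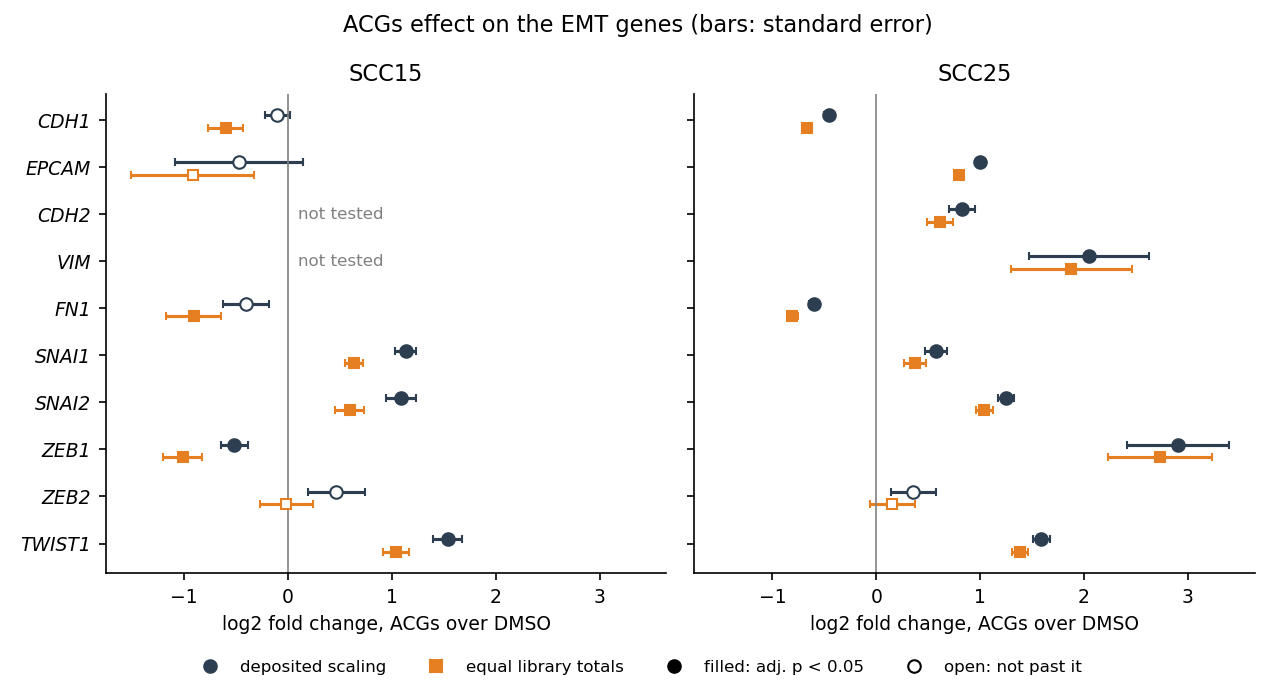
Log2 fold change, ACGs over DMSO, of each EMT gene in SCC15 (left) and SCC25 (right), with the standard error, for the deposited scaling (dark circles) and for equal library totals (orange squares), where filled symbols passed an adjusted p of 0.05 in limma. SNAI1, SNAI2 and TWIST1 are filled and above 0 in both lines under both scalings, and CDH1 and FN1 in SCC15 are filled under equal totals only.

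The effect of ACGs was compared between the lines as a contrast over 14454 genes tested in both, of which 52.2% differed (26.0% higher and 26.1% lower in SCC25 than in SCC15). Of the 8 members in this contrast, 3 differed, 1 higher and 2 lower. ZEB1 had a log2 fold change larger by 3.42 ± 0.52 in SCC25 than in SCC15 (limma, adjusted p = 1.40e-04, and 7.99e-05 with no filter on low values). Its SCC25 side passed the minimum mean only through the ACGs libraries, and with at least 10 in every library it was not tested. The rise of SNAI1 was smaller in SCC25 by 0.55 ± 0.13 (limma, adjusted p = 0.00374), though not past the threshold with equal library totals (-0.26, adjusted p = 0.0644). The change of CDH1 was lower in SCC25 by 0.35 ± 0.13 (limma, adjusted p = 0.0377). This call was lost with equal totals (-0.07, limma adjusted p = 0.780) and with edgeR (adjusted p = 0.0643). It was also lost when any 1 of 8 of the 12 libraries was left out (adjusted p up to 0.0908 by limma). Without SCC15 ACGs replicate 3 the CDH1 difference was -0.45 (limma, adjusted p = 2.91e-04), and the SCC15 change of CDH1 was -0.01 (limma, adjusted p = 0.914). For TWIST1 (0.05 ± 0.16), SNAI2 (0.16 ± 0.16), FN1 (-0.19 ± 0.22) and ZEB2 (-0.11 ± 0.35), the difference on the log2 scale did not pass (limma, adjusted p from 0.440 to 0.813), which does not show that the lines acted alike. The SNAI2 difference was past the threshold with equal totals (0.45, limma adjusted p = 0.0269), and the FN1 difference without SCC15 ACGs replicate 3 (-0.44, limma adjusted p = 1.36e-06). The EPCAM difference, 1.47 ± 0.59, did not pass (limma, adjusted p = 0.0520) but was called under 6 of the alternatives and without any 1 of the 3 SCC15 ACGs libraries, with the SCC15 side resting on 2 to 15 reads per library. SNAI1, SNAI2 and TWIST1 rose in both lines, as did 22.1% of all genes tested in both, no member fell in both (18.6% of all genes), and ZEB1 had opposite calls, as did 10.1%.

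TWIST1 and ZEB1 moved apart in SCC15. The ratio of TWIST1 to ZEB1 reads was 0.709, 0.570 and 0.547 in the DMSO libraries and 1.94, 2.43 and 3.38 in the ACGs libraries, a log2 difference of 2.06 (exact permutation test, two-sided, p = 0.1, the smallest possible). ZEB1 has the longer transcript, and in TPM TWIST1 stood above ZEB1 with both treatments.

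The genes around the members were taken from lists that cover the wider programme. Of 24 epithelial junction and polarity genes, 22 were tested in SCC15, and 11 rose and 4 fell (median log2 fold change 0.31, against 0.01 over all genes). In SCC25, 9 of 24 rose and 12 fell (median -0.20, against -0.01). With equal library totals the SCC15 counts turned to 3 higher and 10 lower (median -0.19, against -0.48 over all genes, of which 2357 were higher and 8033 lower). The sign of the list's median in SCC15 therefore depends on the scaling, and under both scalings it lay above that of all genes. JUP, the plakoglobin gene, rose in SCC15 from 2166 ± 147 to 4766 ± 359 normalized counts (log2 fold change 1.14), and CLDN4, a tight junction claudin, from 113 ± 2.15 to 241 ± 78.7 (1.03). TJP1, the gene of the junction scaffold ZO-1, fell in SCC15 from 2768 ± 59.7 to 1404 ± 293 (log2 fold change -1.001). In SCC25, the P-cadherin gene CDH3 fell from 9532 ± 95.1 to 5184 ± 451 (-0.88), while OCLN, occludin, rose from 247 ± 28.1 to 443 ± 38.1 (0.85). Under the deposited scaling, opposite calls in the 2 lines were made for 10 of the 22 junction genes tested in both, and for 10.1% of all genes. Among them, CTNNB1, CTNNA1, JUP, CLDN1, CLDN7 and PRKCZ rose in SCC15 but fell in SCC25, and TJP1, CGN and PRKCI did the reverse. With equal totals, opposite calls were made for 3 of the 22 genes. JUP and PRKCI kept theirs, and OCLN, with no call in SCC15 under the deposited scaling, was added. CTNNB1 was then lower in SCC15, and CTNNA1, CLDN1, CLDN7 and PRKCZ in SCC15 and TJP1 and CGN in SCC25 no longer passed.

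Of the regulators that keep cells epithelial, 4 of 11 rose and 2 fell in SCC15, and 9 of 14 rose and 2 fell in SCC25 (medians 0.20 and 0.30), where 30.9% and 38.3% of all genes rose. With equal totals the split was 4 to 5 in SCC15 and 7 to 5 in SCC25. ELF3, an epithelial ETS factor, rose in SCC15 from 35.0 ± 5.33 to 379 ± 48.3 normalized counts (log2 fold change 3.401), and EHF, of the same family, fell from 1032 ± 77.6 to 172 ± 19.6 (-2.58). In SCC25, KLF4, a factor of keratinocyte differentiation, rose from 630 ± 17.4 to 2974 ± 68.9 (2.24), OVOL1, a repressor of ZEB1, from 133 ± 15.0 to 482 ± 20.9 (1.85), and ESRP1, which directs epithelial splicing, from 2232 ± 8.98 to 4292 ± 144 (0.94). GRHL2, which opposes ZEB1, fell in SCC25 from 1561 ± 29.1 to 780 ± 48.3 (-1.001), and ESRP2 was lower in both lines (-0.88 in SCC15 and -0.47 in SCC25). KLF4 and KLF5 were higher in both lines under both scalings, and ELF3, higher in SCC25 by 0.22, was at 0.02 and no longer past the threshold there with equal totals.

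The other transcription factors linked to EMT did not move as a group. In SCC15, 4 of 12 rose and 3 fell, and in SCC25, 3 of 12 rose and 6 fell (medians 0.00 and -0.23). Over all genes tested, 30.9% rose and 30.0% fell in SCC15, and 38.3% rose and 38.5% fell in SCC25. TCF3, which encodes the E-box binding E12 and E47 proteins that pair with TWIST1, rose in SCC15 from 1362 ± 31.1 to 2342 ± 121 normalized counts (log2 fold change 0.78), and in SCC25 its value of 0.21 turned to -0.003 with equal library totals. YBX1, of the cold shock domain family, rose by 1.01 in SCC15 and 0.99 in SCC25, and HMGA2, an architectural chromatin protein, in SCC25 from 2496 ± 98.4 to 5727 ± 506 (1.19). SOX4 fell in both lines, by 1.20 in SCC15 and 0.70 in SCC25, and the forkhead genes FOXQ1 and FOXC1 fell in SCC25 by 1.71 and 0.98.

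Mesenchymal and contractile effectors were split as well. In SCC15, 6 of 19 rose and 4 fell (median 0.24), which turned to 3 and 7 with equal totals, and in SCC25, 6 of 18 rose and 8 fell (median -0.31). The shares of all genes tested were 30.9% higher and 30.0% lower in SCC15, and 38.3% and 38.5% in SCC25. With equal totals, all genes in SCC15 likewise shifted, to 2357 higher and 8033 lower. Tropomyosin 1 (TPM1) was higher in both lines, by 1.11 in SCC15 and 0.88 in SCC25, and CD44, the hyaluronan receptor, rose in SCC25 from 19914 ± 239 to 43462 ± 479 normalized counts (1.13). The collagen VI gene COL6A2 rose in SCC15 from 3962 ± 188 to 10098 ± 630 (1.35) but was lower in SCC25 (-0.16, and -0.37 with equal totals). Matrix genes that fell beside FN1 in SCC25 include tenascin C (TNC), from 13629 ± 275 to 5507 ± 408 (-1.31), the collagen V gene COL5A1, from 786 ± 68.6 to 344 ± 84.1 (-1.22), and fibrillin 1 (FBN1), by 0.63, while COL1A1 rose from 576 ± 19.8 to 938 ± 88.9 (0.70). FBN1 was lower in SCC15 as well (-0.77, and -1.25 with equal totals).

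The partial EMT genes of head and neck carcinoma had the highest medians of the 7 lists of the wider EMT programme. The squamous markers, which are not among these 7 lists, had medians of 0.82 in SCC15 and 1.08 in SCC25 (0.32 and 0.87 with equal totals). Of all genes tested, 30.9% rose in SCC15 and 38.3% in SCC25. In SCC15, 16 of 25 rose and 5 fell, and in SCC25, 18 of 28 rose and 6 fell, with medians of 0.81 and 0.68 (0.31 and 0.47 with equal library totals, where 12 rose and 7 fell in SCC15 and 16 rose and 10 fell in SCC25). Of the 25 tested in both lines, 13 rose in both, among them LAMB3, P4HA2, ITGA5, CDH13, INHBA, EMP3, ANXA5, PDLIM7, DKK3, FHL2 and LGALS1 (22.1% of all genes rose in both). With equal totals 9 did, and P4HA2 in SCC25, EMP3 and DKK3 in SCC15 and ITGA5 in either line no longer passed. LAMB3, a chain of a basement membrane laminin, rose in SCC15 from 19300 ± 440 to 63156 ± 1893 normalized counts (log2 fold change 1.71). In SCC25 the membrane protein gene EMP3 rose from 56.6 ± 5.84 to 320 ± 44.4 (2.47) and CDH13, a cadherin with no cytoplasmic domain, from 140 ± 11.7 to 686 ± 56.8 (2.28). TGFBI, a matrix protein named for its induction by TGF-beta, fell in SCC25 from 5845 ± 81.9 to 895 ± 82.6 (-2.71), and IGFBP3, which binds insulin-like growth factors, from 12494 ± 794 to 3390 ± 448 (-1.89); both were higher in SCC15.

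**Figure D3:**
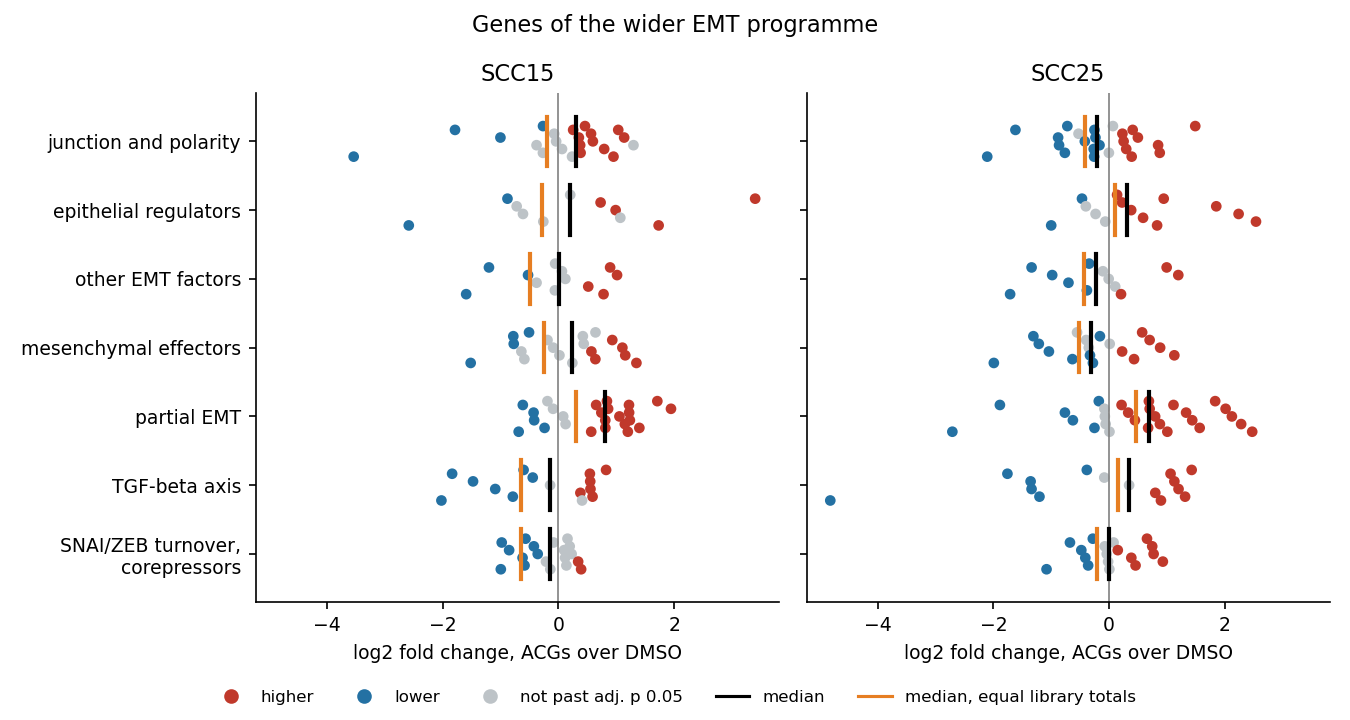
Log2 fold change, ACGs over DMSO, of each tested gene in 7 lists of the wider EMT programme in SCC15 (left) and SCC25 (right), coloured by the limma call, with the list median under the deposited scaling (black) and under equal library totals (orange). The partial EMT list has the highest medians in both lines, 0.81 and 0.68, and the junction list in SCC15 changes the sign of its median with the scaling.

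TGF-beta is the best known inducer of SNAI1 and ZEB1, and its ligands, receptors and SMADs were split. In SCC15, 6 of 15 rose and 7 fell, and in SCC25, 7 of 15 rose and 6 fell (medians -0.14 and 0.35, and 0 rose and 8 fell in SCC15 with equal totals). Among all genes tested, 30.9% rose and 30.0% fell in SCC15, and 38.3% rose and 38.5% fell in SCC25. With equal totals, 2357 of all genes rose and 8033 fell in SCC15. The SCC25 median rested on single libraries, from 0.08 without DMSO replicate 2 to 0.75 without ACGs replicate 2. SMAD7, which inhibits the pathway, rose in SCC25 from 114 ± 6.96 to 308 ± 24.0 normalized counts (1.43), and in SCC15 its value of 0.59 was 0.09 and no longer past the threshold with equal totals. The receptor gene TGFBR1 rose in SCC25 from 416 ± 18.9 to 965 ± 169 (1.20), and SMAD4, the common partner of the SMADs, from 260 ± 33.6 to 644 ± 51.1 (1.31). TGFBR1 was lower in SCC15 (-0.44, and -0.94 with equal totals). The corepressor gene SKI fell in both lines, by 1.47 in SCC15 and 1.20 in SCC25, and the ligand gene TGFB2 fell in SCC15 from 910 ± 32.8 to 432 ± 79.1 (-1.09). TGFB2 was lower in SCC25 as well (-1.76, and -1.96 with equal totals).

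Snail and ZEB proteins are turned over by kinases and ubiquitin ligases and act through corepressors, and most of those genes that passed the test in SCC15 were lower. There, 2 of 19 rose and 8 fell (0 and 15 with equal totals, 6 and 10 without ACGs replicate 3), and in SCC25, 7 of 18 rose and 6 fell (medians -0.14 and -0.01). Of all 15902 genes tested in SCC15, 30.9% rose and 30.0% fell. With equal totals 2357 rose and 8033 fell, and without ACGs replicate 3 the counts were 6103 and 5920. In SCC25, 38.3% of all genes rose and 38.5% fell. BTRC, the F-box protein that marks phosphorylated Snail for destruction, fell in SCC15 from 722 ± 19.8 to 366 ± 7.02 normalized counts (log2 fold change -0.98). It was lower in SCC25 as well (-0.41, and -0.62 with equal totals). FBXL14, another ligase subunit for Snail, fell in both lines, by 0.99 in SCC15 and 1.08 in SCC25. AJUBA, a LIM protein that Snail recruits, fell in SCC15 by 0.85. In SCC25, the kinase gene LATS2 rose from 827 ± 35.4 to 1574 ± 23.3 (0.93) and FBXO45, which encodes another F-box protein for EMT factors, from 797 ± 20.8 to 1337 ± 93.0 (0.74). Both had the opposite call in SCC15, lower with log2 fold changes of -0.57 for LATS2 and -0.42 for FBXO45 (-1.06 and -0.92 with equal totals).

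The miRNAs themselves were not measured, only the RNA of their host genes, of the sequences shown above. MIR200CHG in SCC25 was low, with 30.6, 32.4 and 39.8 normalized counts with DMSO and 16.5, 15.6 and 22.2 with ACGs. The treatments did not overlap, and the log2 fold change was -0.89 ± 0.26 (limma, adjusted p = 0.00796); this gene was named after its value had been seen. MIR205HG was abundant in SCC25, with 10046 ± 140 normalized counts with DMSO and 11148 ± 454 with ACGs (log2 fold change 0.15, limma adjusted p = 0.00419, but -0.06 and not past the threshold with equal totals), and near 0 in SCC15, where no ACGs library held a read. A count of 0 allows up to 3 reads per library. MIR200CHG was not analysed here in SCC15. Among the other noncoding genes, MALAT1 rose 2.23-fold in SCC15 and 1.82-fold in SCC25, and HOTAIR fell by 1.66 and 1.62 on the log2 scale.

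Markers of other cell types were examined as well. Of 7 fibroblast markers, 0 rose and 2 fell of 4 tested in SCC15, and 1 rose and 0 fell of 2 tested in SCC25. Their summed level was 487 to 488 normalized counts with ACGs and 721 to 794 with DMSO in SCC15, and 1064 to 1223 and 758 to 801 in SCC25. In SCC15 this included COL3A1 (445 ± 26.0 with DMSO and 259 ± 16.3 with ACGs) and DCN (78 with ACGs), and in SCC25 DCN had at most 1 read per library and COL1A1 gave most of the sum. Of 5 endothelial markers, 1 fell of 1 tested in SCC15 and 3 of 3 in SCC25, with sums of 164 to 181 with DMSO and 66.1 to 77.5 with ACGs in SCC15 and 235 to 296 and 19.8 to 37.7 in SCC25. Of 5 immune markers, 0 of 2 passed in SCC15 (499 to 541 with DMSO, 320 to 506 with ACGs), and 1 of 2 fell in SCC25 (334 to 427 and 19.1 to 32.2). The part of such cells in the changes of FN1, VIM and the SNAI, ZEB and TWIST genes was not tested. Of the squamous markers, 3 of 5 tested rose in SCC15 (2 rose and 2 fell with equal totals) and 5 of 6 in SCC25, where KRT5 fell (medians 0.82 and 1.08), and their summed level was 112493 to 118783 with DMSO and 208259 to 362487 with ACGs in SCC15.

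The genes whose pattern over the 12 libraries was most like that of CDH1, after each line had been centred on its mean, were SMYD4 (Pearson r = 0.964), PRDM15 (0.959) and DNAH2 (0.955) of 9697 genes compared. For VIM they were ELOVL4 (r = 0.861), TDRD3 (0.858) and CDS1 (0.849). The libraries of a line share its scaling, and the VIM values of SCC15 are a few reads, so these values only describe the 12 libraries.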

How the data were processed

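The RNA-seq libraries of both lines were analysed, 3 with ACGs and 3 with DMSO per line. The authors extracted RNA with TRIzol, made the libraries with a NEBNext Ultra kit, aligned the reads to GRCh38 with HISAT2 2.0.5 and counted them per gene with featureCounts 1.5.0-p3. The strand setting is not given in the sources used here. The deposited signal is the read count of a gene divided by 1 size factor per library, set by the authors in each line; multiplied by that factor, 100% of the values came out whole within 0.01. The SCC25 columns carry the name FPKM but hold the same kind of value. Columns with the authors' means, fold changes and p-values were not used. All per-sample columns were used. Names turned into dates (24 and 21 genes) were kept by identifier.

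Genes with a mean of at least 10 normalized counts were tested as log2(value + 1) with limma (version 3.58.1, R 4.3.3), using the trended eBayes option, two-sided p-values, adjusted by Benjamini-Hochberg within a line, and the lines were compared by a contrast. Fold changes are on that scale, which understates low genes. TPM used recovered reads and exonic lengths of GENCODE release 44. Alternatives were pseudocounts of 0.1 and 10, no filter, at least 10 in every library, TMM factors, equal library totals, a replicate block, each library left out, and count models on the recovered reads (DESeq2 1.42.0, edgeR 4.0.16). Ratios within a library, the seed matches and the cAMP response element were added after the data had been seen. The scripts were tested on simulated data. Reads carry no molecular identifiers, so floors cover counting error only.

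The 10 genes and the lists were chosen with earlier results of these data known. All 10 are named, and of each list up to 3 genes with the largest rise and 3 with the largest fall, among called genes whose mean reached 100 and whose treatments did not overlap. Some genes called in both lines are also named. A few genes of the lists are not reported here.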

Additional observations from a re-analysis of the deposited data

Results flagged for a closer look

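For 3 of the 8 EMT genes tested in both lines, the effect of ACGs differed between SCC25 and SCC15 by a test of the difference itself, where 52.2% of all genes tested in both differed. For ZEB1 the log2 fold change in SCC25 minus that in SCC15 was 3.42, with a rise in SCC25 and a fall in SCC15. For SNAI1 it was -0.55, with a rise in both lines. For CDH1 it was -0.35, with a fall in SCC25 and overlapping treatments in SCC15. The values of SNAI1 and CDH1 depend on the scaling of the libraries, as given with the results, and for ZEB1 the SCC25 side rests on 1 to 30 reads per library and passed the minimum mean only through the ACGs libraries.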

How the results depend on the processing

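The calls of SNAI1, SNAI2 and TWIST1 as higher in both lines, of ZEB1 as lower in SCC15, and of CDH1, EPCAM, CDH2, FN1, SNAI1, SNAI2 and TWIST1 in SCC25 remained under each alternative run. Equal library totals changed most: genes higher and lower in SCC15 became 2357 and 8033, members lower in SCC15 3, genes lower in the contrast of the lines 2396, members higher there 3 and members lower 0, and the signs turned for ZEB2 in SCC15 (-0.0147) and, in the contrast, for FN1 (0.10) and ZEB2 (0.17). In the contrast, where 1 member was higher and 2 were lower, 2 were higher with a pseudocount of 10, TMM factors, edgeR, DESeq2 and the replicate block, 0 were higher with at least 10 in every library, and 1 was lower with no filter, TMM factors, edgeR and the replicate block. With each library left out, the members lower in SCC15 numbered 1 to 2, those higher in the contrast 1 to 2 and those lower 1 to 3. EPCAM in SCC15 ranged from -0.89 to 0.25, and in the contrast ZEB2 from -0.29 to 0.0336 and TWIST1 from -0.0671 to 0.13. Replicate numbers did not pair the libraries (correlation of deviations -0.051 to 0.0078 over 6 pairs); with the replicate block 4665 genes were higher and 4451 lower in SCC15, 6294 and 6317 in SCC25, and the CDH1 difference between lines had adjusted p = 0.0718 (limma). The cause of these changes was not tested. Depth limits CDH2, VIM and EPCAM in SCC15 and VIM and ZEB1 in SCC25, each with at most 30 reads in any library.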
